A study of Mus musculus with 8 samples.

Results

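The laminins, nidogens, perlecan and agrin, which are secreted glycoproteins of the muscle basement membrane, were examined as 10 genes among the 55487 gene identifiers of the deposited table. The genes were taken by name: the laminin chains Lama2, Lama4, Lama5, Lamb1, Lamb2 and Lamc1, the nidogens Nid1 and Nid2, the perlecan gene Hspg2 and the agrin gene Agrn. All 10 were found by their identifier, and each reached 10 counts in all 8 libraries. The lowest count of any of them in any library was 142 and the highest was 3496. The libraries came from skeletal muscle of 8 male C57BL/6J mice aged 10 weeks, and all 8 formed 1 group. Both hindlimbs had been held in casts for 8 days while the mice received K14Q MOTS-c, a form of the mitochondrially encoded peptide MOTS-c with 1 amino acid exchanged, at 15 mg/kg/day in 2 intraperitoneal injections a day. The sample labels name vastus lateralis as the muscle, whereas the study's methods name gastrocnemius, and which of them was taken was not tested. Every mouse was both immobilized and treated, so the values below describe the level of these genes and their spread between mice, and no effect of immobilization or of the peptide was measured.

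A laminin is a trimer of an alpha, a beta and a gamma chain joined through a coiled coil, and the alpha chain carries the part that binds receptors on the cell surface. In skeletal muscle the fibre is wrapped in laminin built on the Lama2 chain, which binds the glycosylated receptor dystroglycan and the integrin of the fibre, while Lama4 and Lama5 chains are known from vessel walls, nerve sheaths and the synaptic part of the fibre membrane. Nidogens link laminin to type IV collagen, and perlecan and agrin are heparan sulfate proteoglycans that bind laminin, agrin also being the nerve-derived signal that clusters acetylcholine receptors.

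The promoter sequences show how unlike the start regions of genes in this set are, and 4 that span the range of CpG dinucleotide counts are printed: Lama2, Nid1, Lama5 and Agrn. RefSeq promoter windows on GRCm38.p6, from 250 bases before to 50 bases after a gene's start, were found for 7 of the 10 genes, with 2 windows for Agrn. Each is printed in the direction of transcription. Capitals mark GC boxes, here the letters GGGCGG or, on the other strand, CCGCCC, counted with overlaps. The Lama2 window is chr10:27616893-27617192 on the minus strand and lies inside the span that GENCODE gives to the gene. The Nid1 window is chr13:13437352-13437651 on the plus strand. The Lama5 window is chr2:180225810-180226109 on the minus strand, and the upstream Agrn window is chr4:156197439-156197738 on the minus strand.
Lama2: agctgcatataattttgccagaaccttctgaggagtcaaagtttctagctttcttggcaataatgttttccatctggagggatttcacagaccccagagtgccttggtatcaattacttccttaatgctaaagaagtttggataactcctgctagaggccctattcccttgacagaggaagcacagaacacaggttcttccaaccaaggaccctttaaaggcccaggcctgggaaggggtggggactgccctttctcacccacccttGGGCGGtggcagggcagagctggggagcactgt
Nid1: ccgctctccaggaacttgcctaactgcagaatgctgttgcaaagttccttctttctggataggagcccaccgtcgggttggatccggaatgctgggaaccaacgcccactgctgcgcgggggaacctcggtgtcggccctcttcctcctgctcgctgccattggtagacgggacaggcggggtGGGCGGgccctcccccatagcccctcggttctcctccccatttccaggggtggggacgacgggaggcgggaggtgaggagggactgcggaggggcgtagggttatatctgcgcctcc
Lama5: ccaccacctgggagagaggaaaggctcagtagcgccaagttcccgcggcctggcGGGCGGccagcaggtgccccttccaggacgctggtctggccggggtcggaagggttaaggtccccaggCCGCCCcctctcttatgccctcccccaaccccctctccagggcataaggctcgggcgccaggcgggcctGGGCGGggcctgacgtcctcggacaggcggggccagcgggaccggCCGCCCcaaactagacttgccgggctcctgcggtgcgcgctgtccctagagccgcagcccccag
Agrn: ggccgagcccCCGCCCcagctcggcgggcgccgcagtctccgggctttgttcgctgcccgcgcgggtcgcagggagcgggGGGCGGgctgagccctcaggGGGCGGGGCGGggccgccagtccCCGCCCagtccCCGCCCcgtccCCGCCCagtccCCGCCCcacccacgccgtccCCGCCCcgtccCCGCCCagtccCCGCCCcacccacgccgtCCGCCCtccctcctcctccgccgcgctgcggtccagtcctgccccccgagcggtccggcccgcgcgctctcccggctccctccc
The Agrn window held 12 GC boxes, the Lama5 window 4, and the Lama2 and Nid1 windows 1 each. Of the windows not printed, Hspg2 held 5, Lamb1 2, Lamb2 0 and the downstream Agrn window 2. Of all 32851 promoter windows of this length, 35.7% held at least 1 box. The Lama2 window had 1 CpG dinucleotide against 20 in Nid1, 24 in Lama5 and 42 in Agrn, with 27 in Hspg2, 18 in Lamb1, 4 in Lamb2 and 11 in the downstream Agrn window, and the median of all windows was 7. Hspg2 exceeded Lama5 in both counts, so neither fully separated the genes by whether their levels varied together. Of the genes with a window, only Lama5 and Agrn were outside the group that did, too few to decide the question. These counts describe the letters of the windows. No binding or methylation was measured, so their part in the levels was not tested.

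The recovered totals were between 23985356 and 33012497 counts per library, and the 10 most abundant genes took 18.8% to 26.2% of them. The fibre markers fitted the labelled tissue: the 7 fast fibre genes (Myh4, Myh1, Acta1, Ckm, Tnnt3, Actn3 and Pvalb) summed to between 1687871 and 3470721 normalized counts, and no gene of any of the 12 marker lists was at 0 in any library. Libraries of 3 mice stood apart. Mice 3 and 4 had the lowest summed fast fibre level, at 1687871 and 1871762 against 2422742 to 3470721 in the other 6 mice. Mouse 8 stood apart in transcript length: relative to the gene means, its log2 level changed by -0.13 for each SD of log2 transcript length, so that long transcripts were low in it, against -0.03 to 0.07 in the other 7 mice. The genes described here have long transcripts, from 4876 bases for Nid2 to 14187 for Hspg2, and for the correlations and calls between them the values with this trend removed are given as well. In bulk muscle, fewer cells of a type and less RNA per cell cannot be told apart.

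The 3 alpha chains did not vary alike between the mice. Lama2 (ENSMUSG00000019899, chr10:26980036-27619758, minus strand), the alpha chain of the muscle fibre, had 1401 ± 299 normalized counts (SD, n = 8), with 899 in mouse 8, a median of 1459 and 1713 in mouse 2. Lama4 (ENSMUSG00000019846, chr10:38965515-39110188, plus strand), an alpha chain known from vessels, had 397 ± 128 (SD, n = 8), from 208 in mouse 8 through a median of 425 to 547 in mouse 2. Its coefficient of variation of 32.1% was the widest of the 10 genes, and the highest mouse was 2.63 times the lowest. Lama5 (ENSMUSG00000015647, chr2:180176373-180225859, minus strand), the other alpha chain of vessels and synapses, had 1139 ± 235 (SD, n = 8). Its values formed 2 clusters that did not overlap: mice 3 and 4 had 1526 and 1505, and the other 6 mice had 983 to 1073. The beta and gamma chains, which join the alpha chain in the trimer, were each lowest in mouse 8. Lamb1 (ENSMUSG00000002900, chr12:31265234-31329644, plus strand) had 419 ± 95.4 (SD, n = 8), between 287 in mouse 8 and 574 in mouse 2 with a median of 392. Lamb2 (ENSMUSG00000052911, chr9:108479736-108490530, plus strand), the beta chain concentrated at the neuromuscular synapse, had 1936 ± 207 (SD, n = 8), between 1539 in mouse 8 and 2234 in mouse 1 with a median of 1977. Lamb2 was the steadiest of the set, with a coefficient of variation of 10.7%. Lamc1 (ENSMUSG00000026478, chr1:153218922-153332786, minus strand), the gamma chain shared by most muscle laminins, had 2454 ± 433 (SD, n = 8), from 1675 in mouse 8 to 3116 in mouse 5 with a median of 2407.

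The nidogens resembled Lama4 in that mice 1 and 2 were high. Nid1 (ENSMUSG00000005397, chr13:13437551-13512269, plus strand) had 1725 ± 431 normalized counts (SD, n = 8), from 1175 in mouse 7 and 1202 in mouse 8 through a median of 1716 to 2355 in mouse 2. Nid2 (ENSMUSG00000021806, chr14:19751265-19811787, plus strand) had 183 ± 35.4 (SD, n = 8), and its values formed a low group of 6 mice, from 157 to 177, below mice 1 and 2 at 237 and 239.9. The proteoglycans differed from each other. Hspg2 (ENSMUSG00000028763, chr4:137468769-137570630, plus strand) had 2825 ± 499 (SD, n = 8), with 1745 in mouse 8 and 2424 to 3206 in the other 7 mice. Agrn (ENSMUSG00000041936, chr4:156165290-156197488, minus strand) had 307 ± 37.0 (SD, n = 8), with its lowest value, 246, in mouse 4, a median of 307, and its highest, 368, in mouse 8. Mouse 8 was thus the lowest mouse for 8 of the 10 genes, but the highest for Agrn. Exons of Lama2 and Nid1 share 631 and 143 bases with the antisense genes Gm48084 and Gm48682, and those of Nid2 share 437 bases with Rtraf on the opposite strand. Whether the counting used strand is not given in the sources used here, so reads of these stretches are uncertain.

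**Figure D1:**
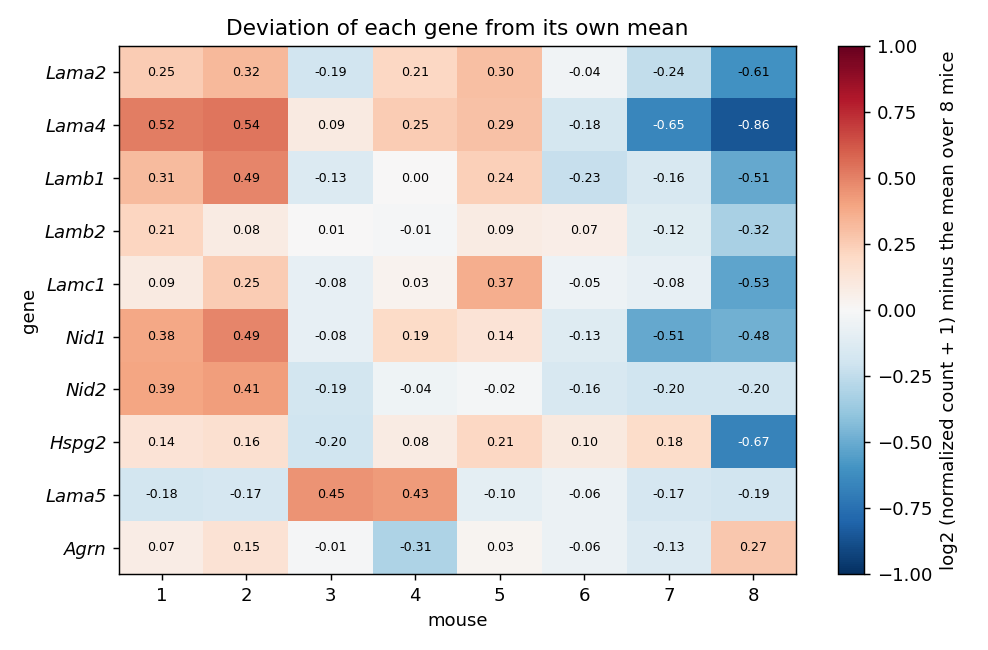
Each cell gives log2(normalized count + 1) of a gene in 1 mouse minus the gene's mean over the 8 mice, with genes in rows, mice in columns, red for higher and blue for lower. The first 8 rows are blue in mouse 8 (Lama2 at -0.61, Lama4 at -0.86), whereas Lama5 is red in mice 3 and 4 only (0.45 and 0.43) and Agrn is 0.27 above its mean in mouse 8.

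The spread between mice was larger than counting error, which was 1.89% for Hspg2 to 7.46% for Nid2 as a coefficient of variation at the mean count. The median coefficient of variation of the 10 genes was 19.99%, against 13.4% over the 11096 genes whose mean reached 100 normalized counts, and 8 of the 10 genes, all but Lamb2 and Agrn, lay above that median. Lama4 was above 95.2% of those genes in its variation and Lamb2 above 30.5%.

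Levels of different genes were compared per kb of merged exon. Lamb2 was highest, at 318 ± 34.1 normalized counts per kb (SD, n = 8), followed by Lamc1 at 297 ± 52.4, Nid1 at 248 ± 62.0 and Hspg2 at 197 ± 34.9. Next came Lama5 at 100.02 ± 20.6 and Lama2 at 85.8 ± 18.3, then Lamb1 at 42.2 ± 9.62, Nid2 at 35.3 ± 6.84, Agrn at 33.1 ± 3.99 and Lama4 at 32.9 ± 10.6. Among the 12361 protein-coding genes that reached 10 counts in each library, Lamb2 was above 80.7% in level per kb and Lama4 above 27.5%. The 9 neighbours in this order were compared within mice by an exact two-sided sign-flip permutation test, for which the smallest p with 8 mice is 0.00781. The step from Hspg2 down to Lama5 was 1.97-fold and from Lama2 down to Lamb1 2.03-fold, each in 8 of 8 mice (exact permutation p = 0.00781, 0.0352 adjusted over the 9 steps). Lamc1 was 1.21-fold above Nid1 in 7 of 8 mice, and Lamb1 was 1.19-fold above Nid2 in 7 of 8 mice (exact permutation p = 0.0156 for each, 0.0352 adjusted). Nid1 was 1.24-fold above Hspg2 in 7 of 8 mice, which did not hold after adjustment (exact permutation p = 0.0391, 0.0703 adjusted). The other 4 steps were within the spread between mice: Lamb2 above Lamc1, 1.08-fold in 6 of 8 mice (exact permutation p = 0.0859); Lama5 above Lama2, 1.17-fold in 5 of 8 (p = 0.164, exact permutation); Nid2 above Agrn, 1.06-fold in 5 of 8 (p = 0.516, exact permutation); and Agrn above Lama4, with a geometric mean 1.05-fold higher but 3 of 8 mice in that direction (p = 0.766, exact permutation).

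**Figure D2:**
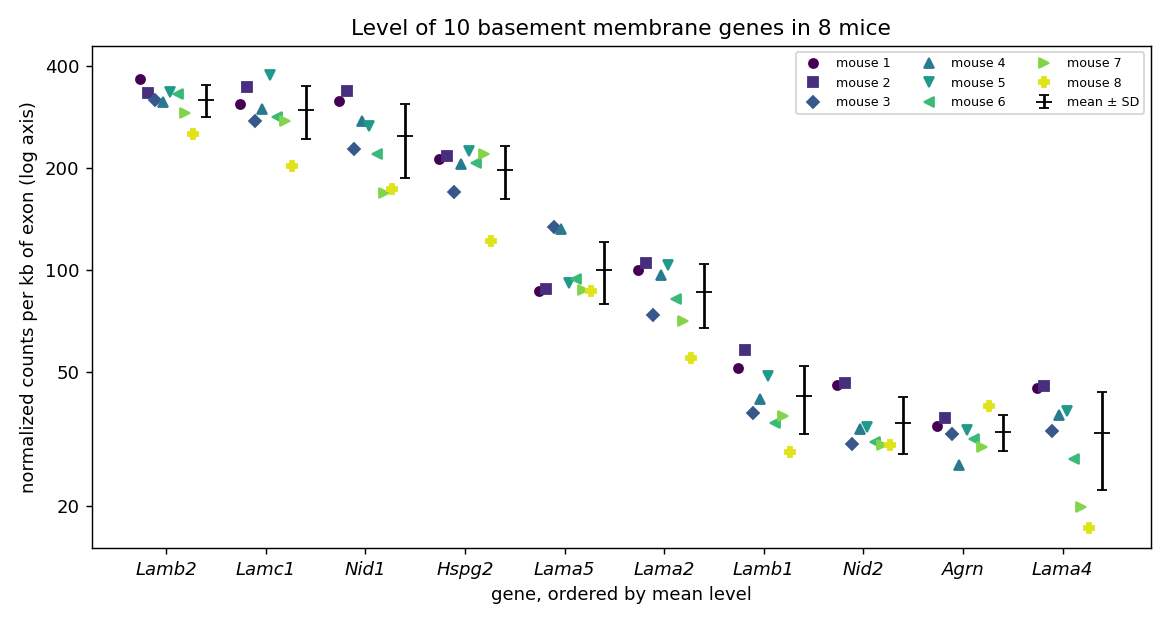
Normalized counts per kb of merged exon on a log axis, for the 10 genes ordered by their mean, with 1 symbol per mouse and the mean ± SD over 8 mice to the right. Lamb2, Lamc1, Nid1 and Hspg2 have means of 197 to 318, Lama5 and Lama2 of 100.02 and 85.8, and the remaining 4 genes of 32.9 to 42.2.

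The places of Lama2, Lama5, Lama4 and Nid2 rested on the length used. Lama2 has 16338 bases of merged exon but 9614 in its longest protein-coding transcript, and Lama4 has 12068 and 6046, whereas Lama5 has 11388 by either measure. Per kb of longest transcript, Lama2 stood at 146 ± 31.1 normalized counts per kb (SD, n = 8), which was 1.45-fold above Lama5 at 100.02, in 7 of 8 mice (exact permutation p = 0.0156, 0.0469 adjusted over 9 steps). On that scale Lama4 was at 65.7 ± 21.1, above Agrn at 42.3 and Nid2 at 37.4, but its step above Agrn did not hold after adjustment (1.48-fold in 7 of 8 mice, exact permutation p = 0.0391, 0.0703 adjusted). Agrn was then 1.14-fold above Nid2 in 5 of 8 mice, the reverse of their order per kb of merged exon (exact permutation p = 0.0781, 0.0879 adjusted). Lamb1 stood at 72.4 against 37.4 for Nid2, a wider gap than the 42.2 and 35.3 per kb of merged exon. The first 4 places were the same with both lengths, but per kb of longest transcript Lamc1 above Nid1 no longer held after adjustment (1.15-fold, exact permutation p = 0.0469, 0.0703 adjusted), and Nid1 above Hspg2 did (1.41-fold, exact permutation p = 0.0156, 0.0469 adjusted).

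The trimer needs its chains in equal number, so chain levels were set against Lamc1, whose product is the gamma chain of all common muscle laminins. The summed alpha chains (Lama2, Lama4 and Lama5) came to 0.744 ± 0.0993 of Lamc1 per kb of merged exon (SD, n = 8), from 0.620 in mouse 5 to 0.890 in mouse 4, and to 0.972 ± 0.111 per kb of longest transcript. The summed beta chains (Lamb1 and Lamb2) came to 1.23 ± 0.124 of Lamc1 (SD, n = 8), between 1.02 in mouse 5 and 1.39 in mouse 8. Lamb2 made up 88.4% ± 1.63 of the beta chain level (SD, n = 8), from 85.2% to 90.4%, and this share hardly varied. The alpha chain shares varied more. Lama2 made up 39.1% ± 4.96, Lama4 14.8% ± 3.23 and Lama5 46.1% ± 7.47 of the alpha chain level (SD, n = 8). Lama5 had the largest share in mouse 3, at 55.7%, and Lama2 its smallest there, at 30.5%. Mouse 8 came close to that for Lama5, at 54.4%, with Lama4 at its lowest share of 10.9%. Mouse 8 reached its high Lama5 share through low Lama2 and Lama4 levels, and mouse 3 with a Lama5 level of 1526 normalized counts. With longest transcripts, Lama2 held 46.7% and Lama5 32.7%, so which chain led rested on the length. Nid1 was 7.01 ± 0.923 times Nid2 per kb (SD, n = 8), and Hspg2 was 6.10 ± 1.45 times Agrn, from 3.08 in mouse 8 to 7.74 in mouse 4.

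**Figure D3:**
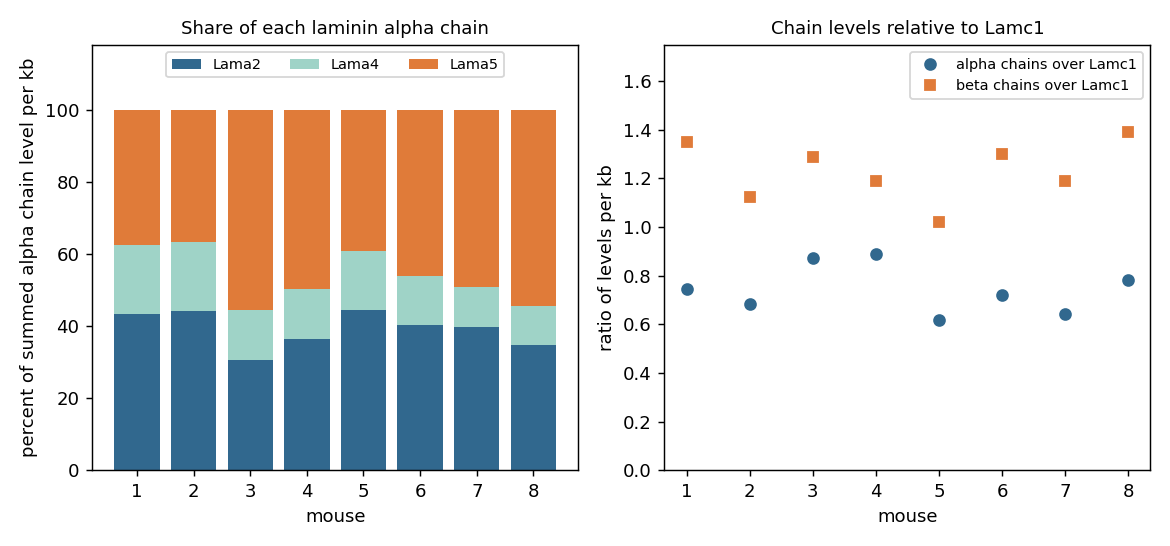
Left, stacked bars of the percent of the summed alpha chain level per kb of merged exon contributed by Lama2, Lama4 and Lama5 in each mouse; right, the ratio of summed alpha chains (circles) and summed beta chains (squares) to Lamc1 in each mouse. The Lama5 share runs from 36.8% in mouse 2 to 55.7% in mouse 3, and the alpha ratio stays below the beta ratio in every mouse.

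Of the 10 genes, 8 were positively correlated with each other over the 8 mice, Hspg2 mainly through mouse 8. Of the 45 pairs, 33 had a positive Pearson r of log2(normalized count + 1), and all 28 pairs among Lama2, Lama4, Lamb1, Lamb2, Lamc1, Nid1, Nid2 and Hspg2 did, with a median of 0.816 and a range of 0.425 to 0.970. The median over the 45 pairs was 0.712, against 0.0029 over all pairs of the 11096 genes whose mean reached 100, and against 0.195 over pairs of the 2475 of these with a longest transcript at least as long as that of Nid2. The closest pair was Lama4 and Nid1 (r = 0.970, exact permutation p = 0.000174; rho = 0.952, p = 0.00114), and r was 0.953 without mice 7 and 8, which were farthest from the median of Lama4. Lama2 and Lamc1, an alpha and a gamma chain, had r = 0.932 (exact permutation p = 9.92e-05; rho = 0.952, p = 0.00114) and 0.826 without mice 7 and 8. The nidogens had r = 0.858 with each other (exact permutation p = 0.00771; rho = 0.929, p = 0.00223) and 0.946 without mice 7 and 8. Hspg2 and Lamc1 had r = 0.862 (exact permutation p = 0.00508; rho = 0.738, p = 0.0458), but 0.437 without mice 8 and 5 and 0.542 without mouse 8 alone, which was the highest of its pairs without that mouse. Without mouse 8, r of Hspg2 was -0.00113 with Lama4, 0.136 with Nid1 and 0.137 with Lamb2. Agrn had a positive r with 1 of the 9 others, Nid2 (0.269), and this rested on mouse 8, without which its r was 0.615 with Nid2, 0.633 with Lamb1, 0.614 with Lamb2, 0.499 with Lamc1, 0.463 with Lama4, 0.456 with Nid1 and 0.328 with Lama2. Its r with Hspg2, the other proteoglycan, was -0.526 (exact permutation p = 0.215; rho = -0.119, p = 0.793), and 0.0985 without mouse 8. These 5 are among 45 relations computed, and the adjusted values that follow come from a fit over all genes.

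Taking the log2 level of 1 gene as the covariate, limma with Benjamini-Hochberg adjustment over 15134 genes asked which of the other 9 rose with it by its slope, the log2 change per log2 unit of the covariate. With Lama4, 3 of 9 rose, where 2.99% of all genes did. They were Nid1 (slope 0.69 ± 0.09 SE, adjusted p = 0.00459), Lama2 (0.59 ± 0.11 SE, adjusted p = 0.0169) and Lamb1 (0.56 ± 0.12 SE, adjusted p = 0.0323). Nid1 was called with Lama4 by limma under each of the alternatives run and without each single mouse (adjusted p up to 0.0441, without mouse 8), whereas the reverse, Lama4 with Nid1, was lost without mouse 8 (limma adjusted p = 0.0700). Without mouse 2 or mouse 8, Nid1 was the only 1 of the 9 still called with Lama4. edgeR called the same 3 genes, where 2.44% of all genes rose. With Lama2, 4 of 9 rose (Lama4, Lamb1, Lamc1 and Nid1), where 1.83% of all genes did in limma and 0.971% in edgeR, which also called 4. All 4 were lost without mouse 1 (limma adjusted p = 0.0572 to 0.0878), mouse 2 (0.0681 to 0.101) or mouse 8 (0.409 to 0.565) and with the length and GC trends removed (0.0785 to 0.243), and 1 or 2 were called without mouse 5, 6 or 7, with library totals or with log2 library total as second covariate. With the trends removed the slopes were 1.93 for Lama4 (1.44 as measured), 1.10 for Lamb1 (0.90), 1.27 for Nid1 (1.01) and 0.72 for Lamc1 (0.75). With Nid1, 3 rose (Lama4, Lama2 and Lamb1), where 1.41% of all genes did in limma and 1.16% in edgeR, which also called 3. Without mouse 1, 2 or 6, without mice 3 and 4, with library totals, with log2 library total as second covariate and with the trends removed 1 was called, and without mouse 8 0 were. The slopes of Lama4, Lama2 and Lamb1 with Nid1 were 1.36, 0.81 and 0.79 as measured. They were 1.20, 0.63 and 0.69 without mouse 8, and 1.39, 0.56 and 0.74 with the trends removed. With Lamb1, 3 rose (Lama2, Lama4 and Nid1), where 0.654% of all genes did, each with a limma adjusted p of 0.0474, and 0 by edgeR, where 0% of all genes rose and its adjusted p for each of the 3 was 0.0585. With Lamb1 as covariate 1 was called by limma without mouse 3 and 0 without any other single mouse, with log2 library total as second covariate (limma adjusted p = 0.0952), with a minimum of 1 count (0.0526 to 0.0534) or with the trends removed (0.142 to 0.196). With the trends removed the slopes were 1.379 for Lama4 (1.414 as measured), 0.96 for Nid1 (1.01) and 0.62 for Lama2 (0.92). At an unadjusted p under 0.05 both tools had 7 of 9, where 10.8% of all genes rose in limma and 10.5% in edgeR. The calls among Lama2, Lama4, Nid1 and Lamb1 are the same pairs taken with either gene as covariate, so they are not separate findings.

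Lamc1, the chain chosen as the first covariate, gave 0 of 9 called by limma and 0 by edgeR, where 0.198% and 0% of all genes rose. At an unadjusted p under 0.05, 6 of 9 had a positive slope with it in either tool, where 11.2% of all genes did in limma and 10.9% in edgeR. Lama2 came nearest, with a slope of 1.15 ± 0.20 SE (limma adjusted p = 0.0543). Lamb2 likewise gave 0 of 9 in both tools, where 0.0925% of all genes rose in limma and 0% in edgeR, and at an unadjusted p under 0.05 it gave 6 in limma and 7 in edgeR, where 10.3% and 9.86% of all genes rose. Nid2 and Hspg2 gave 0 of 9 in both tools, where 0.00661% and 0% of all genes rose in limma, and 0% in edgeR. At an unadjusted p under 0.05 Nid2 gave 4 in both tools, where 7.2% of all genes rose in limma and 6.95% in edgeR, and Hspg2 gave 5, where 7.69% and 7.02% did. With Lama5 and with Agrn as covariate, 0 of 9 rose or fell in limma and edgeR, also at an unadjusted p under 0.05. With Lama5, 0.145% of all genes rose and 0.192% fell in limma, and 0.132% and 0.0793% in edgeR. At the unadjusted p, 6.81% rose and 6.75% fell with it in limma, and 6.67% and 6.9% in edgeR. With Agrn 0% of all genes rose or fell in either tool, and at the unadjusted p 1.55% rose and 2.52% fell in limma, and 1.59% and 2.33% in edgeR.

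**Figure D4:**
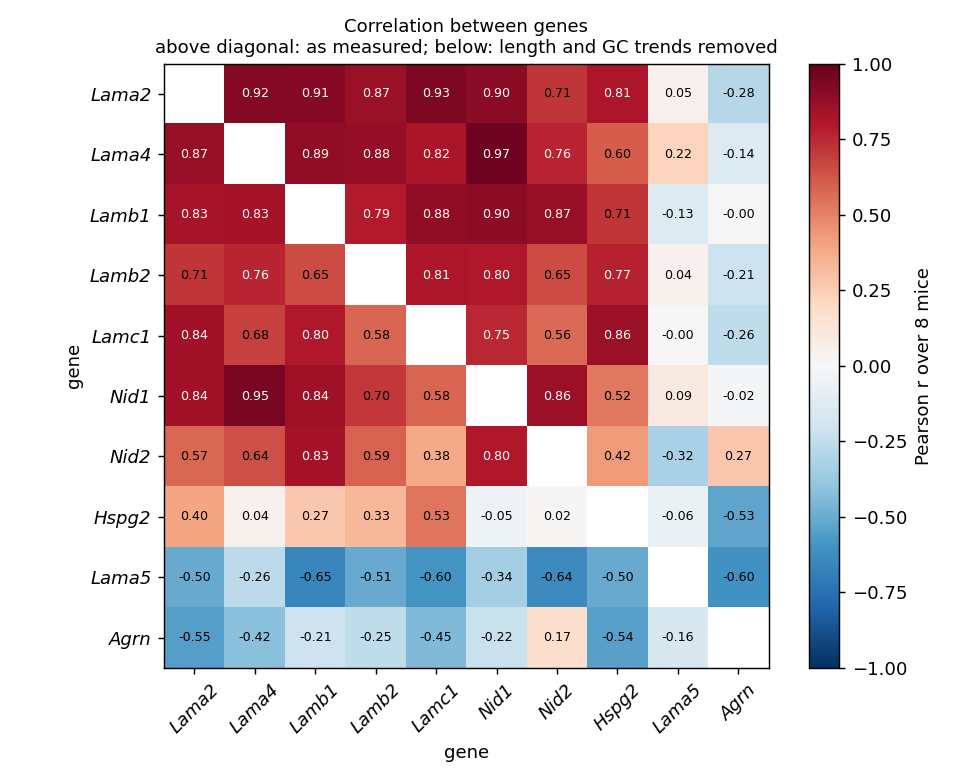
Pearson r over the 8 mice for each pair of genes, above the diagonal for log2(normalized count + 1) as deposited and below it after each library's trend on transcript length and GC content was removed; red is positive and blue negative. The upper block of 8 genes is red throughout (0.425 to 0.970), its Hspg2 row fades after the trend is removed, and Lama5 and Agrn lie outside the block, Agrn through mouse 8, without which its r with Lama2, Lama4, Lamb1, Lamb2, Lamc1 and Nid1 is 0.328 to 0.633.

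The trend of the libraries on transcript length moved with these genes. It varied with Lama2 (r = 0.978, exact permutation p = 0.000521; rho = 0.952, p = 0.00114; r = 0.947 without mice 8 and 2), and with limma 5 of the 10 genes rose with it (Lama2, Lama4, Lamb1, Lamc1 and Nid1), where 2.44% of all genes did, and edgeR gave 5, where 1.89% did. Hspg2, which has the longest transcript, was not among them (limma adjusted p = 0.0640). The trend was fitted over genes that include these 10, all with long transcripts, so a rise with it is in part built in. The share over genes of every length is therefore no like background, and none over long genes alone is given. With the trends on length and GC content removed from every gene, an alternative chosen after seeing the data, the 45 pairs had a median r of 0.380, and 28 were positive. Of the 28 pairs among the 8 genes 27 were positive, with a median of 0.670. Lama4 and Nid1 kept r = 0.949 and passed as either covariate (limma adjusted p = 0.0172 for Nid1 with Lama4 and 0.0232 for Lama4 with Nid1), while the calls of Lama2 and Lamb1 with Lama4 were lost (limma adjusted p = 0.103 and 0.109), with slopes of 0.39 and 0.50 against 0.59 and 0.56 as measured. The pairs of Hspg2 with Lama4, Nid1 and Nid2 went to 0.0446, -0.0469 and 0.0151. Of the 9 pairs with Lama5, 4 were positive as measured and 0 with the trends removed, with a median r of -0.503. The part of the length trend in the remaining pairs was not tested.

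Nid1, Lama4 and Lama2 were called with markers of connective tissue cells. A fibroblast score, the mean z-score of 8 markers (Dcn, Dpt, Lum, Fbln1, Mfap5, Col1a1, Col14a1 and Pdgfra), was lowest in mouse 8 and highest in mouse 2, and the markers summed to between 10294 and 19186 normalized counts, most of it from decorin (Dcn, 6835 to 13748). With limma, 3 of the 10 genes rose with this score, where 0.654% of all genes did. Nid1 rose by 0.47 ± 0.07 SE log2 per unit of score (adjusted p = 0.0168), Lama4 by 0.63 ± 0.10 SE (adjusted p = 0.01999) and Lama2 by 0.40 ± 0.07 SE (adjusted p = 0.0403). edgeR called Nid1 and Lama4 but not Lama2 (adjusted p = 0.0566), where 0.41% of all genes rose. At an unadjusted p under 0.05, 8 of the 10 genes rose with the score in limma and 7 in edgeR, where 10.1% and 9.5% of all genes did. No gene of the 10 was called with the score when mouse 1, mouse 2 or mouse 8 was left out, and without mouse 7 the count was 1. The slopes of Nid1, Lama4 and Lama2 were then 0.46, 0.63 and 0.42 without mouse 1, 0.43, 0.63 and 0.40 without mouse 2, and 0.47, 0.54 and 0.31 without mouse 8. Nid1 had r = 0.955 with the score (exact permutation p = 0.000422; rho = 0.952, p = 0.00114), and 0.923 without mice 8 and 2. The fibroblast score itself varied with the length trend (r = 0.902, exact permutation p = 0.00144; rho = 0.952, p = 0.00114; r = 0.788 without mice 8 and 2). With the length and GC trends removed from markers and genes, Nid1 (limma adjusted p = 0.0409) and Lama4 (limma adjusted p = 0.0389) still passed and Lama2 did not (limma adjusted p = 0.112). Hspg2 had 0.26 ± 0.10 SE log2 per unit of the score and was not called (limma adjusted p = 0.239), and Agrn had -0.05 ± 0.09 SE. After the fibroblast score was removed from each gene, 27 of the 45 pairs were positive with a median r of 0.194. Of the 28 pairs among the 8 genes 21 were, with a median of 0.466 and a range from -0.487 to 0.928, the latter for Lama2 and Lamc1.

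The 6 tendon markers (Tnmd, Scx, Mkx, Thbs4, Fmod and Comp), which summed to between 905 in mouse 8 and 6158 in mouse 1, gave the same 3 genes with limma (Lama2, Lama4 and Nid1), where 0.482% of all genes rose, and 1 with edgeR, Lama2, where 0.225% rose. All 3 were lost without mouse 1 (limma adjusted p = 0.0729 to 0.123), mouse 2 (0.0777 to 0.130), mouse 7 (0.0531 to 0.117) or mouse 8 (0.390 to 0.542) and with the length and GC trends removed (0.0615 to 0.0988), and without mouse 4 or mouse 5 only Lama2 was called. The slopes of Lama2, Lama4 and Nid1 were 0.41, 0.60 and 0.43 as measured and 0.25, 0.49 and 0.33 with the trends removed. They were 0.42, 0.58 and 0.42 without mouse 1, 0.40, 0.57 and 0.39 without mouse 2, and 0.43, 0.55 and 0.38 without mouse 7. The tendon score followed the fibroblast score (r = 0.951, exact permutation p = 7.44e-05; rho = 0.976, p = 0.000397; r = 0.935 without mice 8 and 2), so the 2 lists do not give separate evidence. At an unadjusted p under 0.05, 8 of the 10 genes rose with the tendon score in both tools, where 9.62% of all genes did in limma and 9.02% in edgeR. The 9 endothelial markers, led by Pecam1 at 1343 to 1904 normalized counts, summed to 4322 to 6148. With their score 0 of 10 genes were called in limma and edgeR, where 0% of all genes were, and 4 had a positive slope at an unadjusted p under 0.05 in both tools, where 5.77% of all genes did in limma and 5.7% in edgeR. These were Lamb1, Lama4, Nid1 and Nid2. None of the 10 genes was called by limma or edgeR with the scores of mural cells, Schwann cells, satellite cells, macrophages, adipocytes, blood, slow fibres or denervation, where 0% to 0.159% of all genes rose in limma. The macrophage score reached 0.159% in limma and 0.00661% in edgeR. At an unadjusted p under 0.05, 5 of the 10 had a positive slope with the mural cell score in limma and 3 in edgeR, where 6.54% and 6.21% of all genes rose. With the macrophage score 4 had one in both tools, where 9.19% and 8.61% of all genes rose, and with the adipocyte score 6 did, where 7.42% and 6.74% rose. With the Schwann cell, satellite cell and blood scores 0 had one at that p in either tool, where 0.846%, 4.98% and 3.32% of all genes rose in limma and 0.985%, 4.83% and 3.28% in edgeR. At the same unadjusted p, Lama5 had a negative slope with the slow fibre score, where 1.53% of all genes fell in limma and 1.55% in edgeR, and Lamb1 with the denervation score, where 3.48% and 3.61% fell. The most abundant macrophage and adipocyte markers were present in each library, with Lyz2 at 769 to 1907 and Cfd at 397 to 1448 normalized counts. The part of these cell types in the levels was not tested.

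Lama5 ran against the fast fibre markers. Its mean in mice 3 and 4 was 1.496 times that in the other 6 mice, and these were the mice whose 7 fast fibre genes summed lowest. With limma, Lama5 fell by 0.28 ± 0.05 SE log2 per unit of the fast fibre score (adjusted p = 0.0276; edgeR adjusted p = 0.0238), and it was the only 1 of the 10 to do so, where 0.509% of all genes fell in limma and 0.555% in edgeR, and 0.952% rose in limma. The call rested on mice 3 and 4: without mouse 3 the limma adjusted p was 0.232 (slope -0.23), without mouse 4 0.233 (slope -0.24) and without both 0.999 (slope -0.06). It was also lost without mouse 1 (limma adjusted p = 0.0520), mouse 2 (limma adjusted p = 0.0608) and mouse 7 (limma adjusted p = 0.0737), and with the length and GC trends removed (limma adjusted p = 0.145), with slopes of -0.29 without each of these 3 mice and -0.23 with the trends removed. Since the mice formed 2 clusters, the relation was measured over the other 6 mice, where it kept its direction with r = -0.945 (exact permutation p = 0.0319; rho = -0.886, p = 0.0333; -0.924 after dropping the 2 most distant mice), but there Lama5 spanned only 983 to 1073 normalized counts and its slope was -0.10 log2 per unit of the score, or -0.06 by limma with the score computed again without mice 3 and 4. The fast fibre genes take a large part of the counts, and their score followed the percent of counts in the 10 most abundant genes (Pearson 0.923 with an exact permutation p of 0.00186, Spearman 0.833 with p = 0.0154, and Pearson 0.721 once mice 3 and 4 were left out). Lama5 also fell by 0.28 with TMM factors in place of the deposited scaling (limma adjusted p = 0.0318). With library totals it fell by 0.43 (limma adjusted p = 0.0323). With the percent of counts in the 10 most abundant genes as covariate, 0 of the 10 genes fell, where 0.879% of all genes did in limma and 0.899% in edgeR. At an unadjusted p under 0.05, 1 of the 10 fell with it in both tools, where 9.34% and 9.1% of all genes did. The part of sequencing composition in the relation of Lama5 to the fast fibre score was not tested.

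**Figure D5:**
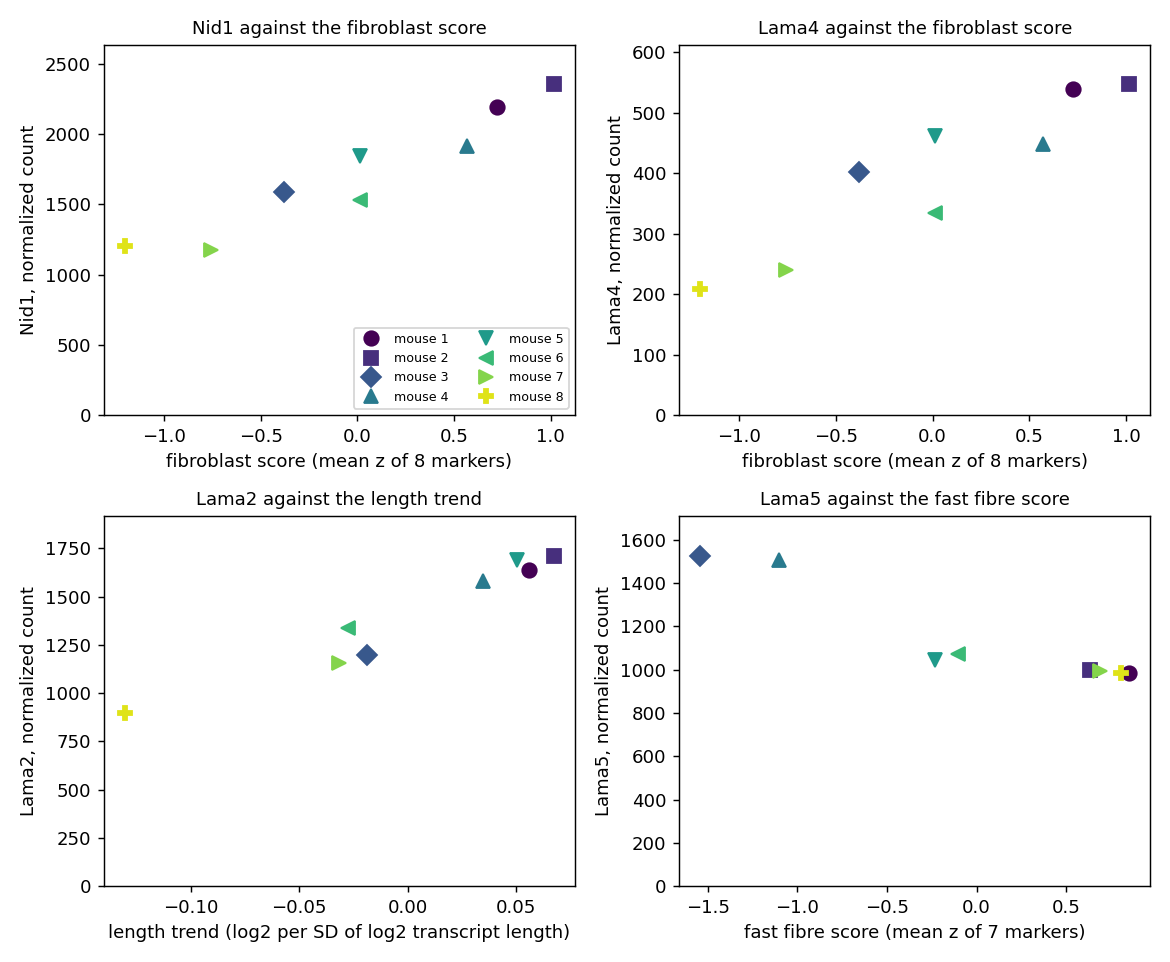
Normalized counts of Nid1 and Lama4 against the fibroblast score, of Lama2 against the length trend of the libraries and of Lama5 against the fast fibre score, with 1 symbol per mouse and vertical axes from 0. Nid1, Lama4 and Lama2 are lowest where mice 7 and 8 lie on the left and highest in mice 1, 2 or 5, and Lama5 is at 1505 and 1526 in mice 4 and 3 and at 983 to 1073 in the rest.

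The partners of these genes were given by 6 lists of 56 genes, of which 52 reached 10 counts in each library. The other laminin chains were scarce. Lama1, the alpha chain of early embryonic basement membranes, had 0 to 3 counts per library, and Lamb3 had as few as 9. Lama3 and Lamc3 had 5.11 and 3.44 normalized counts per kb, so both were far below the 85.8 of Lama2. Among basement membrane collagens, the Col4a1 and Col4a2 chains, which form the common type IV network, had 2123 ± 399 and 1690 ± 323 normalized counts (SD, n = 8), Col15a1 had 306 ± 56.6, and Col4a6 had 4 to 12 counts per library. The receptors were led by Itgb1, the integrin beta 1 chain, at 6984 ± 628 normalized counts, Dag1, dystroglycan, at 5474 ± 858, and Musk, the kinase through which agrin acts, at 1492 ± 409 (SD, n = 8). Dystroglycan carries its laminin-binding sugar through the enzymes of the glycosylation list, of which B3galnt2, Pomgnt1 and B4gat1 were highest per kb, at 496, 238 and 178 normalized counts per kb. Hs6st1, Ndst1 and Extl3, which build or sulfate heparan sulfate chains, had 188, 168 and 152 normalized counts per kb. Of other components, Sparc had 1011, Smoc2 387 and Tinagl1 97.0 normalized counts per kb, and Frem1 had as few as 8 counts in a library.

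None of the 52 partner genes was called with Lamc1 by limma, where 0.198% of all genes rose, and their median slope was 0.35 against -0.01 over all genes. The other laminin chains had 3 of 3 positive slopes with a median of 0.77, the receptors 9 of 9 with a median of 0.62, the collagens 6 of 7 with 0.52, the heparan sulfate enzymes 9 of 10 with 0.38 and the other components 9 of 11 with 0.34. The glycosylation enzymes had 6 of 12 positive and a median of -0.02, near that of all genes. With Lama4, 6 of the 52 rose and 0 fell, where 2.99% of all genes rose. They are named after their values were seen: the receptor genes Itga6 (slope 0.60, limma adjusted p = 0.0119), Itgb4 (0.63, limma adjusted p = 0.0407) and Lrp4 (0.51, limma adjusted p = 0.0260), the collagen Col4a1 (0.47, limma adjusted p = 0.0426), the heparan sulfate epimerase Glce (0.48, limma adjusted p = 0.0383) and Smoc1 (0.80, limma adjusted p = 0.0492). With Lama2, 3 of the 52 rose (Col4a1, Itgb4 and Lrp4), where 1.83% of all genes did. With Nid1, 1 of the 52 rose (Itga6), where 1.41% did, so that share was near the background. With the fibroblast score 0 of the 52 rose by limma, where 0.654% did. With Lama5, 1 of the 52 fell, Fras1, a Fraser complex protein (slope -2.31, limma adjusted p = 0.0485), where 0.192% of all genes fell. It rose with the fast fibre score, where 0.952% of all genes rose. The calls of partner genes come from the main limma fit alone, and no alternative or left-out mouse was examined for them. Lama5, the covariate for Fras1, formed 2 clusters, with mice 3 and 4 above the other 6 mice.

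The genes most alike in pattern over the 8 mice were ranked by Pearson r of log2(normalized count + 1) among 9715 protein-coding genes outside the 10, as a description over values that share the same libraries. For the alpha chains they were Myadm (0.987) and Tnrc18 (0.986) for Lama2, Lhfp (0.988) and Lrp1 (0.987) for Lama4, and Rpp38 (0.982) and Sim2 (0.976) for Lama5. For the other chains they were St6gal1 (0.991) and Cp (0.986) for Lamb1, Hus1 (0.964) and Fam210a (0.960) for Lamb2, and Stk24 (0.987) and Cnot1 (0.987) for Lamc1. Nid1 was followed most closely by Stag2 (0.992) and Thbs2 (0.989) and Nid2 by Trps1 (0.975) and Nmt2 (0.965). Hspg2 was followed by Zbtb7b (0.981) and Prrc2b (0.971). Agrn had the least close partners, Spata6 (0.915) and Wdsub1 (0.897).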

How the data were processed

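Poly-adenylated RNA was sequenced from muscle of 8 mice of 1 group. Per the labels and the study's methods, the authors mapped reads to GRCm38 with STAR, counted reads per gene using summarizeOverlaps, and DESeq2 gave the normalization. The deposited signal is each count divided by 1 size factor per library (0.906 to 1.20): 100% of values were whole reads within a tolerance of 0.01, and the counts were recovered from them. The annotation and use of strand in the counting are not given in the sources used here. The deposited normalized counts were tested with limma, and the recovered counts with edgeR as an alternative. GENCODE M21 gave symbols, positions and lengths for 55227 of 55487 identifiers. No library repeated another (chi-square per degree of freedom 14.9 to 108 over 28 pairs). Nothing in the labels says more about the mice than that they are separate samples, so p-values measure the spread between these samples. Counting errors cover counting only, since reads without molecular identifiers are not independent molecules.

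limma-trend was fitted on log2(normalized count + 1) with 1 covariate over the 15135 genes that reached 10 counts in each library, less the covariate's own genes, at a Benjamini-Hochberg threshold of 0.05. Scores are means of z-scores over marker lists. Exact tests enumerated the 40320 pairings of mice, two-sided. The 10 genes, the 6 partner lists and the 12 marker lists were chosen with earlier results of these data known. Named partner genes were the 3 highest per kb of each list, those called with Lamc1 and those under 10 counts in a library, of which 1 gene is not reported here. Alternatives were TMM factors, library totals, a pseudocount of 5, a minimum of 1 count, edgeR, exact permutation, log2 library total as second covariate, Spearman's rho, longest transcripts, medians and leaving out each mouse. Removing each library's linear and quadratic trends on log2 transcript length and GC content, removing the fibroblast score, leaving out mice 3 and 4, and using Lama4 and the fast fibre score as covariates were chosen after seeing the data. Calls were planned with Lamc1, the fibroblast score and the endothelial score, and the other genes, scores and trends were run beside them as covariates. Adjusted p-values are over genes within 1 covariate and not over the covariates. Fits were tested on simulated data. R 4.3.3, limma 3.58.1, edgeR 4.0.16, Python 3.11.15 and scipy 1.17.1 were used.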

Additional observations from a re-analysis of the deposited data

Results flagged for a closer look

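Of the 10 genes, their chain ratios, the scores and the most abundant partner genes, 55 sets of 8 mouse values were checked for 1 mouse far from the others (a gap to its neighbour above 0.526 of the whole range), and 4 were found, where chance alone gives about 1 in 20. None was a value of the 10 genes or of their ratios. Mouse 7 had a Schwann cell score of 1.63 against -0.85 to 0.32 in the other 7 mice. Mouse 5 had the lowest B3galnt2, at 1653 normalized counts against 3022 to 3847, the highest Hs6st1, at 1357 against 925 to 1076, and the lowest Smoc2, at 2153 against 2590.0 to 2974.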

How the results depend on the processing

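No paired analysis was possible because the labels hold 1 group. The mean level of each of the 10 genes moved by less than its SD between mice under TMM factors, library totals and the median. The counts of genes called moved more. With the fibroblast score, 3 genes were called, 2 with edgeR, library totals, the length and GC trends removed or mice 3 and 4 left out, 0 by exact permutation, whose steps are coarse for an adjustment over all genes, and 0 to 3 with single mice left out. With Lama4, 3 were called, 1 by exact permutation and 1 with the trends removed, and 1 to 3 with single mice left out. With Lamc1, 0 were called, 1 (Lama2) with library totals, and 0 with any single mouse left out. With the fast fibre score, 1 gene fell, and 0 by exact permutation, with the trends removed or without mice 3 and 4, and 0 to 1 with single mice left out. The endothelial score gave 0 throughout. Positive pairs numbered 33, 27 to 42 under the alternatives and 30 to 36 with single mice left out. Of the 9 steps in the order per kb, 5 had an unadjusted p under 0.05, 2 without mice 3 and 4, where 6 mice are left, 6 with longest transcripts, and 4 to 6 with single mice left out. The alpha chain ratio to Lamc1 moved from 0.744 to 0.972 with longest transcripts. Over the 20 calls with a gene or marker score as covariate, 175 alternatives kept the call and 152 lost it, each in the same direction. These calls count pairs among Lama2, Lama4, Nid1 and Lamb1 in both directions, and the tendon calls repeat genes of the fibroblast calls, so they are not independent. The 5 calls with the length trend were run with edgeR only. With 8 mice, relations that rest on mice 1, 2, 7 or 8 cannot be told apart from what is particular to those libraries.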
